A study of Homo sapiens with 3 samples.

Results

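The Wnt and beta-catenin target genes examined here were 10 genes chosen by symbol, namely CTNNB1, AXIN2, LGR5, NKD1, RNF43, ZNRF3, LEF1, SP5, NOTUM and DKK1, out of 25270 symbols listed for each library. All 10 symbols were found. Each was followed across RNA-seq libraries of HepG2/wild, HepG2/metR and HepG2/metR+oxamate cells, with 1 library per group, so that differences could not be set against a spread between replicates and no p-value is given. HepG2 is a human liver cancer cell line. HepG2/wild cells were the untreated parental culture, HepG2/metR cells were labelled as survivors of more than 5 months of metformin, a complex I inhibitor, and HepG2/metR+oxamate cells were those survivors after 24 h with 40 mM oxamate, which blocks lactate dehydrogenase. The labels do not say whether HepG2/metR is 1 clone or a pool of survivors. The study compared parental with HepG2/metR cells to see which genes differ in cells that make more lactate, and HepG2/metR cells with and without oxamate to see which genes respond when lactate is lowered. Both comparisons use the same HepG2/metR library.

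In the canonical Wnt pathway, secreted Wnt proteins bind Frizzled and LRP receptors and thereby inhibit a destruction complex of APC, Axin and the kinases GSK3 and CK1, which otherwise marks beta-catenin for degradation. Stable beta-catenin enters the nucleus, binds TCF and LEF factors and switches on targets, many of which act back on the pathway as inhibitors. In liver this pathway sets the gene program of hepatocytes around the central vein, and it is often activated by mutation in liver cancer. HepG2 cells are known to carry a deletion in CTNNB1 that removes the phosphorylation sites used for degradation, which keeps beta-catenin stable without a Wnt signal. The deposited values give 1 level per gene and cannot tell the alleles apart.

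Levels are given as FPKM, fragments per kilobase of transcript scaled to library depth. The sums of FPKM differed between libraries, at 562350 for HepG2/wild, 534639 for HepG2/metR and 473764 for HepG2/metR+oxamate. Changes are differences of log2(FPKM + 1), a scale that understates the change of low genes, and a change was counted when it reached 2-fold between HepG2/wild and HepG2/metR or 1.5-fold with oxamate. Counts cover the 12207 genes with a mean of at least 1 FPKM over the libraries, and all 10 members passed. AXIN2, LGR5, NKD1, RNF43, SP5 and NOTUM passed only through their level in HepG2/wild, and LEF1 only through its level in the HepG2/metR libraries. For a gene kept only through HepG2/wild or only through the HepG2/metR libraries, the filter set the direction of its change. From the smallest values, 1 fragment on a transcript of 1 kilobase was worth about 0.045 FPKM in HepG2/wild, 0.038 in HepG2/metR and 0.037 in HepG2/metR+oxamate, so that levels under about 0.1 FPKM rest on few fragments.

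The libraries labelled HepG2/metR lacked the hepatocyte program of the parental cells. All 16 hepatocyte markers fell at least 2-fold from HepG2/wild to HepG2/metR, beside 17.6% of all genes kept. Their summed level was 35500 FPKM in HepG2/wild, 15.3 in HepG2/metR and 13.0 in HepG2/metR+oxamate. ALB, the gene of serum albumin, was listed at 0.747 FPKM in HepG2/metR, and 5 of the 16 markers were at 0 there. The filter set the direction of each of the 16 markers other than FGB and SERPINA1. Of 12 mesenchymal markers, 9 were kept. In HepG2/metR 6 (66.7%) had risen and 1 (11.1%) had fallen by the same threshold, beside 16.6% and 17.6% of all genes kept. VIM, the intermediate filament gene vimentin, stood at 1.23 FPKM in HepG2/wild, 1580 in HepG2/metR and 1140 in HepG2/metR+oxamate. FN1, the fibronectin gene, was the 1 that had fallen, at 1500, 45.7 and 93.7 FPKM in the same order. The filter set the direction of VIM, THY1, ZEB2, TWIST1 and SNAI2, kept only through the HepG2/metR libraries. The collagen genes COL1A1, COL1A2 and COL3A1 were not kept. Of 10 endothelial and blood cell markers 8 were not kept, and CD68 was the only one above 3 FPKM, at 35.7, 43.0 and 31.0 FPKM. The part of this shift in the results for the Wnt genes was not tested. That HepG2/metR descends from the parental culture rests on the labels, and a change during selection and a difference in origin cannot be told apart here. In bulk RNA, fewer expressing cells and less RNA per cell cannot be told apart either.

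Of the 10 members, 7 fell by 2-fold or more from HepG2/wild to HepG2/metR, namely AXIN2, LGR5, NKD1, RNF43, ZNRF3, SP5 and NOTUM, against 17.6% of all genes kept. LEF1 was the 1 member at least 2-fold higher, a direction taken by 16.6% of all genes kept, and CTNNB1 and DKK1 did not reach the threshold in either direction. The median log2 change was -4.65 for the members and 0.02 for all genes kept. The filter set the direction of LEF1 and of each lower member other than ZNRF3, which bears on these shares and on the median. With oxamate, DKK1 was the 1 member at least 1.5-fold higher, against 4.30% of all genes kept, and 0 members were at least 1.5-fold lower, against 3.82%. Over all genes kept these shares were 525 genes higher and 466 lower, a split that became 1186 higher and 192 lower when the libraries were scaled to equal sums. Summed over the 7 lower members, the level was 351 FPKM in HepG2/wild, 4.22 in HepG2/metR and 5.31 in HepG2/metR+oxamate, a sum over genes picked for having fallen. Over all 10 members it was 627, 247 and 351 FPKM, most of which in the HepG2/metR libraries came from CTNNB1 and DKK1.

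**Figure D1:**
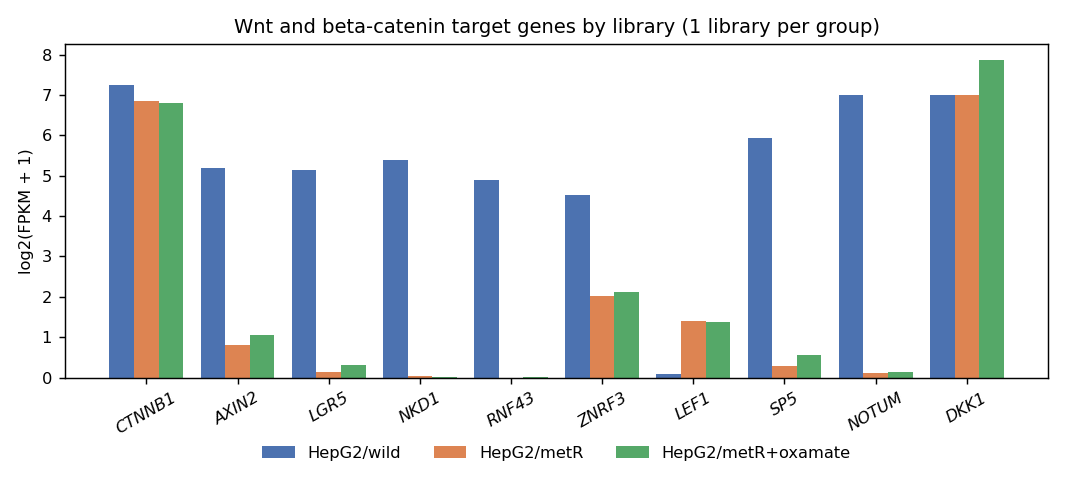
Level of the 10 members on the log2(FPKM + 1) axis, with 1 bar per library and no error bars because each group is 1 library. The parental bar is far above both HepG2/metR bars for AXIN2, LGR5, NKD1, RNF43, ZNRF3, SP5 and NOTUM, the bars of CTNNB1 stay between 6.81 and 7.24, LEF1 is low throughout, and DKK1 is highest with oxamate at 7.87.

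CTNNB1, which encodes beta-catenin itself, was expressed at a high level in each library, at 150 FPKM in HepG2/wild, 114 in HepG2/metR and 112 in HepG2/metR+oxamate. Its log2 change was -0.40 in HepG2/metR and -0.03 with oxamate, and its level ranked at or above percentile 94.5 of all genes kept in each library. The sign of its change with oxamate depended on the scaling, from -0.05 to 0.14. Its transcript was thus abundant in the libraries in which NKD1, RNF43 and NOTUM were near 0. Protein level and nuclear beta-catenin were not measured here. Of the adhesion partners of beta-catenin, CDH1, the epithelial cadherin, fell from 5.92 FPKM in HepG2/wild to 0.0365 in HepG2/metR. CDH1 was kept only through HepG2/wild, so that the filter set its direction. CDH2, another cadherin gene, was at 35.2 FPKM in HepG2/wild, 33.4 in HepG2/metR and 36.1 in HepG2/metR+oxamate. JUP, the plakoglobin gene, fell by 2.14 on the log2 scale to 3.76 FPKM. CTNND1 fell by 1.09 on the log2 scale to 25.3 FPKM, while CTNNA1, which links cadherin complexes to actin, rose from 78.4 to 160 FPKM.

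AXIN2, a scaffold of the destruction complex and a general feedback target of the pathway, was listed at 35.8 FPKM in HepG2/wild, 0.736 in HepG2/metR and 1.08 in HepG2/metR+oxamate. It was 48.6-fold higher in HepG2/wild than in HepG2/metR, with a log2 change of -4.40, and 2.15% of the genes kept had a change as low. NKD1, an inhibitor that binds Dishevelled, stood at 41.3 FPKM in HepG2/wild, 0.0276 in HepG2/metR and 0.0116 in HepG2/metR+oxamate. Both HepG2/metR values of NKD1 are within the range of a few fragments, and its log2 change was -5.36. NOTUM, a secreted enzyme that removes the lipid from Wnt proteins, had the largest change of the members, at 128 FPKM in HepG2/wild, 0.0842 in HepG2/metR and 0.0990 in HepG2/metR+oxamate. The log2 change of NOTUM was -6.89, and 0.549% of the genes kept had a change as low. In HepG2/wild its level exceeded that of 94.7% of the genes kept or equalled it, a rank close to that of CTNNB1.

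RNF43 and ZNRF3 are related membrane ubiquitin ligases that remove Frizzled receptors from the cell surface, and LGR5 is a receptor for R-spondins, which block these ligases. RNF43 was listed at 28.9 FPKM in HepG2/wild, at 0 in HepG2/metR and at 0.0151 in HepG2/metR+oxamate. ZNRF3 was lower but not lost, at 21.9 FPKM in HepG2/wild, 3.05 in HepG2/metR and 3.39 in HepG2/metR+oxamate. It was 7.17-fold higher in HepG2/wild than in HepG2/metR, with a log2 change of -2.50, the smallest among the 7 lower members. LGR5 was listed at 34.5 FPKM in HepG2/wild, 0.0994 in HepG2/metR and 0.244 in HepG2/metR+oxamate, a log2 change of -5.01 between the first 2. Its relative LGR4 stood at 30.7 FPKM in HepG2/wild, 7.12 in HepG2/metR and 8.94 in HepG2/metR+oxamate, so that an R-spondin receptor remained expressed. The R-spondin genes RSPO1, RSPO2 and RSPO4 were listed at 0 in each library, and RSPO3 did not exceed 0.01 FPKM.

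SP5, a zinc finger factor of the Sp family and a direct target of beta-catenin, was listed at 60.5 FPKM in HepG2/wild, 0.214 in HepG2/metR and 0.477 in HepG2/metR+oxamate. Its log2 change was -5.66 in HepG2/metR, and 1.02% of the genes kept had a change as low. SP5 and DKK1 were both high in HepG2/wild but went apart in HepG2/metR, and their promoters are therefore shown. RefSeq promoter windows of 300 bases, from 250 before to 50 after a transcript start on GRCh38.p14, were at hand for 5 members, namely CTNNB1, RNF43, LEF1, SP5 and DKK1, and not used here for AXIN2, LGR5, NKD1, ZNRF3 and NOTUM. The core bound by TCF and LEF factors was searched on both strands as CTTTG followed by A or T at each of the next 2 positions. It was found in the windows of SP5 and DKK1 and in 0 of the windows of CTNNB1, RNF43 and LEF1, while 13.8% of 35116 windows of all genes held it. Below, capitals mark the core on either strand, in the window of SP5 at chr2:170715087-170715386 and that of DKK1 at chr10:52314031-52314330, both on the plus strand.

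SP5: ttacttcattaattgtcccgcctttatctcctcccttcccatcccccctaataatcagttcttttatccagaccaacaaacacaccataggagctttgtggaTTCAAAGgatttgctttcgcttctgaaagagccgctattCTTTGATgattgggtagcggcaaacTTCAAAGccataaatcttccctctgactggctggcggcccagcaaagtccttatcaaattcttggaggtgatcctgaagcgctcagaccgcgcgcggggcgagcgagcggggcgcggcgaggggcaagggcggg

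DKK1: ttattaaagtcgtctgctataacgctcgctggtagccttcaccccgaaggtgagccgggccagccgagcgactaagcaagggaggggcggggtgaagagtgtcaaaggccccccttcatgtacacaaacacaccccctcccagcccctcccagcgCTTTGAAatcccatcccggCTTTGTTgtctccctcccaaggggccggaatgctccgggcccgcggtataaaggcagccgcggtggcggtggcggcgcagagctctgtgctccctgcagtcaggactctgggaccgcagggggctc

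The SP5 window held 3 such cores, the first base of which lay at -148, -109 and -84 from the start, and the DKK1 window held 2, at -95 and -76. Both windows thus carried the core, while SP5 fell to near 0 and DKK1 kept its level in HepG2/metR. A match of letters is not evidence that a factor was bound, and binding was not measured.

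DKK1, a secreted inhibitor that binds the LRP co-receptors, was listed at 126 FPKM in HepG2/wild, 127 in HepG2/metR and 233 in HepG2/metR+oxamate. Its log2 change in HepG2/metR was 0.02, or -0.01 to 0.19 under other scalings. With oxamate it had the largest difference of the members, 1.83-fold or a log2 change of 0.87, and 1.02% of the genes kept had a change as high. Under the same scalings the change with oxamate was 0.85 to 1.04, the highest with equal sums of FPKM, a scaling that put the median of all genes at 0.17. LEF1, a nuclear partner of beta-catenin that is itself a target, was listed at 0.0668 FPKM in HepG2/wild, 1.63 in HepG2/metR and 1.58 in HepG2/metR+oxamate. Its log2 change was 1.30 in HepG2/metR, and its level there was below that of most genes kept, at percentile 12.4.

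The other members did not reach the 1.5-fold threshold with oxamate, with log2 changes from -0.03 to 0.28. SP5, LGR5 and AXIN2 had the largest of these, at 0.28, 0.18 and 0.26, and AXIN2, the highest of the 3, was at 0.736 and 1.08 FPKM. Without the pseudocount, the log2 change of SP5 was 1.15 and that of LGR5 was 1.29, so that both passed 1.5-fold. Over the transcript length of SP5 its values in HepG2/metR and HepG2/metR+oxamate correspond to about 11 and 26 fragments, a low count without a replicate. For LGR5 they correspond to about 2 to 12 and 4 to 30 fragments, depending on the transcript. NKD1 moved the other way without the pseudocount, at -1.26. Its values correspond to about 1 to 12 fragments in HepG2/metR and 0 to 5 in HepG2/metR+oxamate. No member that was low in HepG2/metR returned with oxamate to more than 3.39 FPKM.

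**Figure D2:**
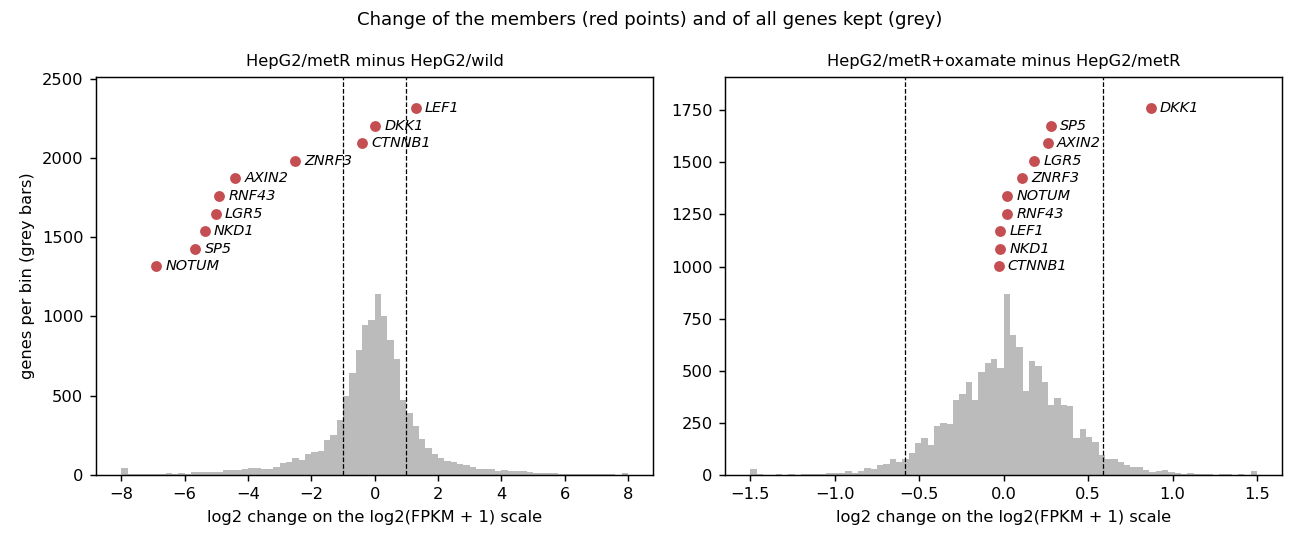
Log2 change of each member (red points, stacked by size) above the distribution over all 12207 genes kept (grey bars, genes per bin), for HepG2/metR minus HepG2/wild on the left and HepG2/metR+oxamate minus HepG2/metR on the right. Dashed lines mark 2-fold and 1.5-fold, and changes beyond the axis are gathered in the end bins. On the left 7 members lie below the lower line, from -2.50 for ZNRF3 to -6.89 for NOTUM, and on the right DKK1 alone lies past a line, at 0.87.

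Because the 7 lower members were at 21.9 FPKM or more in HepG2/wild, they were also set beside other genes with a high parental level, by limits chosen after these values were seen. Of 4077 genes with at least 20 FPKM in HepG2/wild, 262 (6.43%) were under 1 FPKM in HepG2/metR. Of the 9 members with at least 20 FPKM in HepG2/wild, 6 were under 1 FPKM in HepG2/metR, and ZNRF3, CTNNB1 and DKK1 were not.

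Among the remaining 138 genes of the Wnt pathway, its targets and its adhesion partners, 85 were kept, of which 21 (24.7%) were at least 2-fold higher and 28 (32.9%) at least 2-fold lower in HepG2/metR than in HepG2/wild, beside 16.6% and 17.6% of all genes kept. With oxamate 3 (3.53%) were at least 1.5-fold higher and 3 at least 1.5-fold lower, shares near those of all genes kept. Their median log2 changes were -0.02 for HepG2/metR and 0.08 for oxamate.

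Of 19 Wnt ligand genes 4 were kept. Each of the 4 rose at least 2-fold from HepG2/wild to HepG2/metR, beside 16.6% of all genes kept. WNT5B, WNT5A and WNT10B, as WLS below, were kept only through their level in the HepG2/metR libraries, so that their direction was set by the filter. WNT5B, a ligand best known for signals that do not pass through beta-catenin, was listed at 0.0207 FPKM in HepG2/wild, 36.2 in HepG2/metR and 28.5 in HepG2/metR+oxamate. WNT5A, of the same class, was at 0 in HepG2/wild, at 2.04 in HepG2/metR and at 2.98 in HepG2/metR+oxamate. WNT3, a canonical ligand, was listed at 3.75, 16.4 and 20.2 FPKM and WNT10B at 0.0947, 2.02 and 1.93 FPKM, in the same order of libraries. The 2 secretion genes also rose at least 2-fold, beside the same 16.6%. WLS, the carrier that takes Wnt proteins to the cell surface, was at 0.0362 FPKM in HepG2/wild, 41.5 in HepG2/metR and 45.3 in HepG2/metR+oxamate, and PORCN, which adds their lipid, was at 3.46, 8.52 and 10.7 FPKM.

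Of 16 receptor genes 12 were kept. In HepG2/metR 5 (41.7%) rose and 4 (33.3%) fell by 2-fold or more, beside 16.6% and 17.6% of all genes kept. FZD2 rose from 0.0565 FPKM in HepG2/wild to 52.8 in HepG2/metR, whereas FZD4 fell from 27.4 to 0.514 and FZD5 from 19.7 to 1.42. The filter set the direction of FZD2, FZD7, FZD8, ROR1 and ROR2, kept only through the HepG2/metR libraries, and of FZD4, kept only through HepG2/wild. The co-receptor LRP5 fell from 46.1 to 6.47 FPKM. LRP6, the other co-receptor, was listed at 9.68 FPKM in HepG2/wild, 5.83 in HepG2/metR and 9.35 in HepG2/metR+oxamate, a log2 change of -0.64 and then of 0.60. FZD4 also passed the oxamate threshold, at 0.59 on the log2 scale and 1.29 FPKM, and neither it nor LRP6 did so with median-of-ratios scaling.

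Secreted antagonists other than NOTUM and DKK1 split in direction. DKK3 was listed at 0.173 FPKM in HepG2/wild, 37.6 in HepG2/metR and 41.2 in HepG2/metR+oxamate, and SFRP1, which binds Wnt proteins, at 0, 27.5 and 20.7 FPKM. DKK4, itself a target of the pathway, was listed at 5.35 FPKM in HepG2/wild and at 0 in both HepG2/metR libraries. The list of 13 genes other than members also held KREMEN1 and KREMEN2, whose products are membrane receptors and not secreted. Of these 13, 5 were kept, 2 (40.0%) higher, 2 (40.0%) lower and 1 past neither threshold, beside 16.6% and 17.6% of all genes kept. KREMEN1 was lower, from 7.85 FPKM in HepG2/wild to 0.759 in HepG2/metR, and KREMEN2 was past neither. The filter set the direction of DKK3, SFRP1, DKK4 and KREMEN1.

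Few destruction complex genes moved. Besides AXIN2, 15 of 16 genes of Dishevelled and the destruction complex were kept. In HepG2/metR 0 rose and 1 (6.67%) fell by 2-fold or more, beside 16.6% and 17.6% of all genes kept. That gene was DVL3, at 19.4 FPKM in HepG2/wild, 9.08 in HepG2/metR and 12.3 in HepG2/metR+oxamate. APC was listed at 2.88, 4.82 and 6.65 FPKM, AXIN1 at 12.6, 7.51 and 8.28 and GSK3B at 10.8, 15.3 and 19.7, in the same order. AXIN1, which encodes the constitutive form of the scaffold, had a log2 change of -0.67 in HepG2/metR, against -4.40 for AXIN2.

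The TCF and LEF factors changed in make-up. TCF7 fell from 9.50 FPKM in HepG2/wild to 0.321 in HepG2/metR and was at 0.189 in HepG2/metR+oxamate. TCF7L1, which is known mainly as a repressor, rose from 0.392 to 2.67 FPKM and was at 3.78 with oxamate, while TCF7L2 was listed at 6.76, 7.13 and 6.53 FPKM. As a share of the summed FPKM of the 4 family genes, TCF7 made up 56.8% in HepG2/wild and 2.74% in HepG2/metR, LEF1 0.400% and 13.9%, TCF7L1 2.34% and 22.7%, and TCF7L2 40.5% and 60.7%. Among cofactors, the corepressor gene CTBP2 rose from 0.467 to 30.8 FPKM and TLE4 from 0.646 to 7.56, and TLE3 fell from 5.18 to 0.756. The filter set the direction of TCF7L1, CTBP2 and TLE4, kept only through the HepG2/metR libraries, and of TCF7 and TLE3, kept only through HepG2/wild. Besides LEF1, 15 of 17 nuclear factor genes were kept, and 0 of them passed the threshold with oxamate. In HepG2/metR 3 were higher, 3 lower and 9 past neither threshold, beside 16.6% higher and 17.6% lower among all genes kept. Both shares of this list were thus near those of all genes kept.

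**Figure D3:**
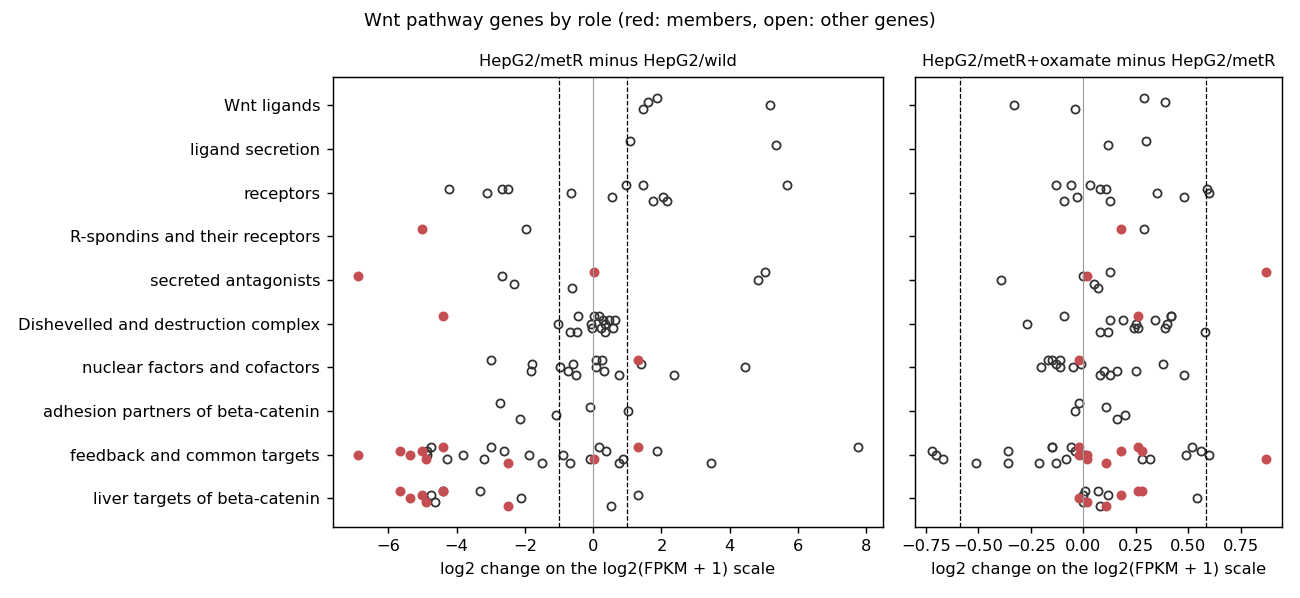
Log2 change of the genes kept in each part of the pathway (rows), with members as red points and other genes as open points, for HepG2/metR minus HepG2/wild on the left and HepG2/metR+oxamate minus HepG2/metR on the right. Dashed lines mark 2-fold and 1.5-fold. The row of secreted antagonists also holds KREMEN1 and KREMEN2, whose products are not secreted. Ligand and secretion genes lie right of the upper line on the left panel, the destruction complex clusters near 0 apart from AXIN2 at -4.40, and targets spread from -6.89 for NOTUM to 7.76 for CD44.

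Other known targets of beta-catenin moved in both directions in HepG2/metR. Of 29 feedback and common targets outside the members 20 were kept, with a median log2 change of -1.19. Of these 20, 10 were at least 2-fold lower and 3 at least 2-fold higher, beside 17.6% and 16.6% of all genes kept. The share that was lower was thus above that of all genes kept, and the share that was higher was near it. BMP4 was listed at 76.4 FPKM in HepG2/wild, 1.65 in HepG2/metR and 3.02 in HepG2/metR+oxamate, and it passed the oxamate threshold at a log2 change of 0.60, though not with median-of-ratios scaling. The largest change in this list was a rise. CD44, a hyaluronan receptor that is also a mesenchymal cell gene, was at 0.152 FPKM in HepG2/wild, 248 in HepG2/metR and 238 in HepG2/metR+oxamate. CD44 and EPHB2 were kept only through the HepG2/metR libraries, so that the filter set their direction. The filter also set the direction of TCF7, TNFRSF19, PROX1, SOX4, JAG1 and CEMIP, kept only through HepG2/wild. These directions bear on the shares and the median of this list. CCND1, the cyclin D1 gene, was listed at 89.2, 150 and 117 FPKM and MYC at 79.3, 74.7 and 46.7 FPKM, so that neither passed 2-fold in HepG2/metR. With oxamate 3 targets were at least 1.5-fold lower. MYC had a log2 change of -0.67, BIRC5 of -0.72 and CDCA7 of -0.70, and with equal sums of FPKM none of the 3 passed.

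A separate list held liver targets of beta-catenin, 15 of them outside the members, and 7 of these were kept. From HepG2/wild to HepG2/metR 5 (71.4%) fell and 1 (14.3%) rose by 2-fold or more, beside 17.6% and 16.6% of all genes kept. On the log2 scale the 7 liver targets had their median at -3.30. GLUL, the glutamine synthetase gene that marks hepatocytes around the central vein, was listed at 85.5 FPKM in HepG2/wild, 3.13 in HepG2/metR and 3.32 in HepG2/metR+oxamate, and was 27.3-fold higher in HepG2/wild than in HepG2/metR. The other 4 lower genes were RHBG, ODAM, SLC13A3 and TBX3, chosen after their values were seen, and RHBG and ODAM were listed at 23.7 and 25.7 FPKM in HepG2/wild and at 0 in both HepG2/metR libraries. RHBG, ODAM and SLC13A3 were kept only through HepG2/wild and CYP2E1 only through the HepG2/metR libraries, so that the filter set their direction. CYP2E1 went the other way, at 0.0563 FPKM in HepG2/wild and 1.63 in HepG2/metR. The 16 hepatocyte markers fell in the same library, and their part in these values was not tested.

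**Figure D4:**
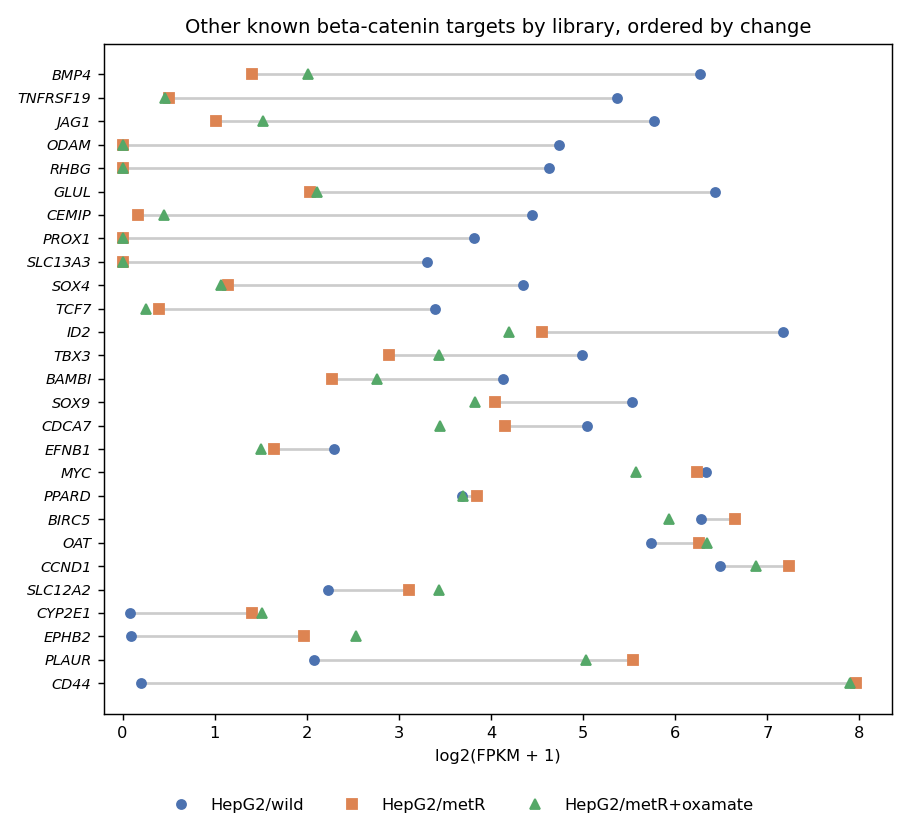
Level on the log2(FPKM + 1) axis of the 27 other beta-catenin targets kept (rows, ordered by change in HepG2/metR), with circles for HepG2/wild, squares for HepG2/metR and triangles for HepG2/metR+oxamate, 1 library each. The grey line joins the first 2. Square and triangle lie close together in most rows, far left of the circle for BMP4, GLUL and their neighbours and far right of it for CD44.

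The genes with the most similar pattern to each member were sought as the smallest Euclidean distance over the 3 log2 values. For AXIN2 the nearest genes were HSD3B7 and SULF2, at distances of 0.17 and 0.19. The nearest to LGR5 were CADM1 and C2orf82, to SP5 LSR and HYAL1, to NKD1 HSD17B2 and SLC13A5, and to RNF43 CHDH and KLB. None of these is among the Wnt genes listed. With 3 libraries many genes lie close to any member, and 61 genes lay within a distance of 1 of AXIN2 and 179 within that of RNF43. DKK1 had the most distant neighbours of the members, RABGGTB at 0.47 and RNASEK at 0.52.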

How the data were processed

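The values deposited by the authors are log2 numbers for each library and gene symbol, in the form of log2(FPKM + 1), a unit inferred from the values. The submitters' processing notes name FastQC 0.11.5, STAR 2.5.1b, Cufflinks 2.2.1 and build hg19; annotation and filters are not given in the sources used here. Promoter windows come from RefSeq on GRCh38.p14 and were not converted.

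Values were used without further scaling, after leaving out 4 rows whose date-like symbols were listed more than once. Genes with a mean of at least 1 FPKM were kept. A fold is given only where both libraries had at least 0.5 FPKM. The value of 1 fragment was read from the commonest low product of FPKM and length among genes with 1 transcript of 800 to 5000 bases in GENCODE 29. Intervals, which need counts, were not computed.

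All members were named, with up to 4 genes per list and comparison with the largest change past the threshold, well-known receptors, factors and targets, and the 2 nearest genes of a member, which are given for AXIN2, LGR5, SP5, NKD1, RNF43 and DKK1 and not reported here for the others. BMP4, CDH2, the liver targets other than GLUL, CD68 and the R-spondin genes were named after their values were seen. So were the genes named only for the effect of the filter. The members and lists were chosen with earlier results of these data known. Alternatives were other pseudocounts, filters, scalings and thresholds. The calculation was tested on simulated data. Python 3.11, numpy 2.4.6, pandas 2.3.3 and matplotlib 3.10.9 were used.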

Additional observations from a re-analysis of the deposited data

How the results depend on the processing

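The 7 members lower in HepG2/metR were the same genes under all alternatives, except that RNF43 has no value without a pseudocount, which left 6. DKK1 passed 1.5-fold with oxamate under each of them but the 2-fold threshold, which left 0 members and 0 other pathway genes in either direction. With a pseudocount of 0.1, 3 members (DKK1, LGR5 and SP5) and 9 other pathway genes were higher with oxamate. With none these were 3 and 9, and 1 member (NKD1) and 5 other genes were lower. At a mean of at least 5 FPKM, 0 members and 12 other pathway genes were higher in HepG2/metR, since LEF1 is not kept. With median-of-ratios scaling 0 other pathway genes were higher with oxamate, and with the same total in each library 11 were higher and 0 lower. Values of low members moved with the pseudocount, and 18 of 98 alternative values of single members moved by over 1.5 times or across the threshold. Of the changes past a threshold 0 changed sign, but changes near 0 did, as that of CTNNB1 with oxamate (-0.05 to 0.14 over the scalings) and that of DKK1 in HepG2/metR (-0.01 to 0.19).

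Over all genes kept, 2021 were higher and 2146 lower in HepG2/metR, against 1249 and 1427 at a mean of at least 5 FPKM and 3262 and 3300 at 1.5-fold. With oxamate 525 were higher and 466 lower, against 1016 higher with a pseudocount of 0.1, 1109 with none, 271 at a mean of at least 5 FPKM, 1186 higher and 192 lower with the same total, and 66 and 64 at 2-fold. Upper-quartile scaling put the median of all genes at 0.17 in HepG2/metR, against 0.02 without it. No paired analysis was possible because each group has 1 library. Depth limits the values under about 0.1 FPKM.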
